A study of Homo sapiens with 4 samples.

Results

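The expression of 10 receptors for hematopoietic and inflammatory cytokines was examined in 4 RNA-seq samples labelled Kasumi-1, an acute myeloid leukemia (AML) cell line. The receptors were KIT, FLT3, CSF1R, CSF2RB, CSF3R, IL3RA, IL6R, IL6ST, IFNGR1 and TNFRSF1B. They were chosen by name, and all 10 were found among the 18567 genes of the table. The NC group held 2 samples that the labels give as untreated and without a hairpin, although the study's methods describe a control hairpin, and which of these they carried was not settled. The sh-ANP32B group held 2 samples of the same line with hairpin knockdown of ANP32B, an acidic nuclear phosphoprotein. The study's methods select cells with puromycin, and if the NC samples carried no hairpin, its delivery and the selection cannot be told apart from the knockdown. Which of the study's 3 hairpins was used in each sample is not stated. Values are TPM, a share of all transcripts, which correct for transcript length and for the sample total, so that levels can be set beside each other between genes. Depth is unknown from TPM, and no counting interval was computed.

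Cytokine receptors carry signals for survival, growth and maturation into blood cells. KIT, FLT3 and CSF1R are receptor tyrosine kinases, which bind their ligand, pair up and phosphorylate each other. Most of the others have no kinase of their own: they are built from a ligand-binding chain and a signalling chain, and the signalling chain works through Janus kinases (JAK) and STAT transcription factors. TNFRSF1B belongs to the tumor necrosis factor (TNF) receptor family and signals through TRAF adaptors. In myeloid cells, KIT and FLT3 are known from stem and progenitor cells, whereas CSF1R and CSF3R are known from the monocytic and granulocytic lines of maturation.

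Knockdown of ANP32B was accompanied by higher levels of CSF2RB, CSF3R and TNFRSF1B, at 2.29, 1.86 and 1.75 times the NC mean. IFNGR1, IL3RA, KIT, IL6R and IL6ST were also above both NC samples, but their tests did not pass after adjustment over all genes. Of these, IFNGR1 and IL3RA passed the study's criterion, which is given below. FLT3 and CSF1R overlapped between the groups and did not pass the test either. Of the 10 receptors, 3 had an adjusted p under 0.05 and all 3 were higher in sh-ANP32B, against 2.14% of all 16817 genes tested called higher, 1.18% called lower and 3.32% called in either direction (limma on log2(TPM + 1), Benjamini-Hochberg adjustment). Over all genes 360 were called higher and 199 lower, a split that moved to 236 and 294 after median-of-ratios scaling, in which each sample is divided by a typical gene's ratio, to 244 and 234 after quantile normalization and to 1161 and 1373 after GC correction. After median-of-ratios scaling CSF2RB alone of the 10 was called, with CSF3R at a limma adjusted p of 0.0592 and TNFRSF1B at 0.0522, and all 3 log2 fold changes stayed above 0. Under the study's criterion, an absolute log2 fold change over 0.5 at an unadjusted p under 0.05, 5 receptors were higher and 0 lower, against 12.1% and 6.55% of all genes. Among the 9 receptors with at least 1 TPM in all 4 samples, the criterion was passed by 4. The median log2 fold change was 0.59 over the 10 receptors and 0.49 over those 9, and it was 0.08 over all genes tested.

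ANP32B itself went with the labels, with 383.8 and 392 TPM for NC replicates 1 and 2 against 51.8 and 41.2 TPM for the knockdown replicates. The labelled cell type was set beside its markers. Kasumi-1 is known as a line with a RUNX1-RUNX1T1 fusion whose cells carry KIT, CD34 and MPO. Of 8 blast markers 6 were measured and 0 were called. The study's criterion was passed by 4, 3 of them higher and 1 lower, against 12.1% of all genes higher and 6.55% lower. RUNX1T1 was at 17.6 and 15.6 TPM in NC against 31.2 and 26.8 TPM in sh-ANP32B (log2 fold change 0.77, limma adjusted p 0.0632). The neutrophil elastase gene ELANE was at 316 and 292 TPM against 433 and 505 TPM (log2 fold change 0.62, limma adjusted p 0.0586), and ANPEP at 87.6 and 81.7 TPM against 124 and 134 TPM (log2 fold change 0.61, limma adjusted p 0.0581). PRTN3, another granule protease, had the opposite sign, at 929 and 882 TPM against 569 and 683 TPM (log2 fold change -0.54, limma adjusted p 0.0818). CD33 and RUNX1 lay between 58.5 and 70.1 TPM and between 121 and 143 TPM. MPO and CD34 were not analysed here. Every gene of the table averaged at least 0.5 TPM. Markers of T cells, erythroid cells, megakaryocytes, epithelium and fibroblasts, 3 genes for each, were likewise not analysed here. The B cell markers measured, 2 of 3, summed to between 3.43 and 8.14 TPM, and CD79A was listed at 0 in sh-ANP32B replicate 1. Of the mast cell markers, the tryptases TPSAB1 and TPSB2 summed to 1854 and 1660 TPM in NC against 2583 and 4000 TPM in sh-ANP32B, and each is uncertain because the pair can share reads. Their log2 fold changes of 0.90 and 0.76 had a limma adjusted p of 0.0749 and 0.0741. After GC correction the log2 fold changes were smaller, at 0.636 and 0.497. Their limma adjusted p was then 0.0194 and 0.0159, in a fit that called 16.4% of all genes. The part of these cells or transcripts in the receptor values was not tested. In bulk RNA, more cells with a receptor and more transcript per cell cannot be told apart.

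**Figure D1:**
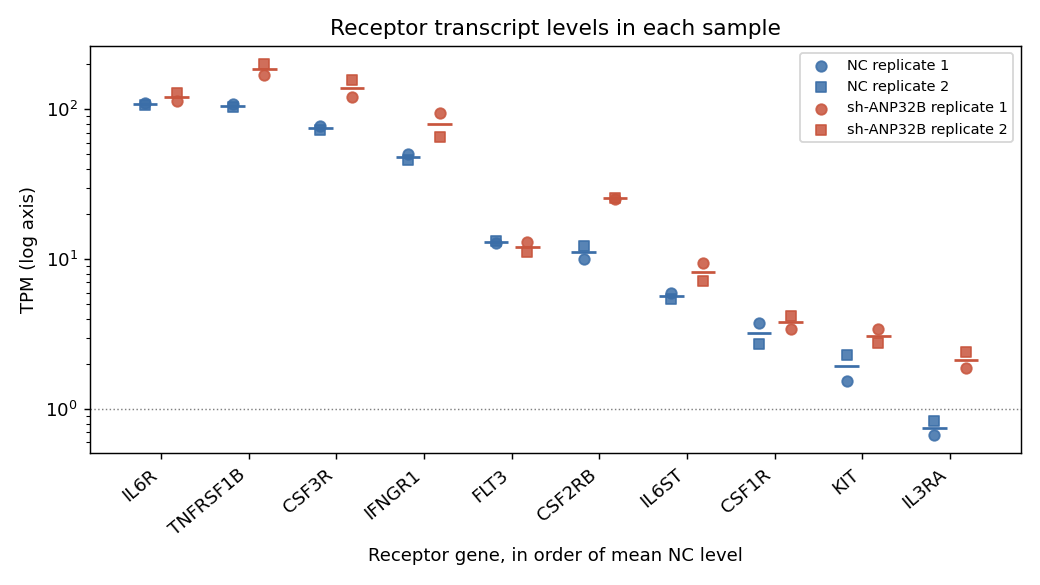
TPM of the 10 receptors in each sample on a log axis, ordered by the NC mean. Circles are replicate 1, squares replicate 2, short lines group means, and the dotted line marks 1 TPM. IL6R, TNFRSF1B, CSF3R and IFNGR1 lie far above KIT and IL3RA in both groups.

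In NC, the order of levels from high to low was IL6R, TNFRSF1B, CSF3R, IFNGR1, FLT3, CSF2RB, IL6ST, CSF1R, KIT and IL3RA. The means ran from 109 TPM for IL6R to 0.751 TPM for IL3RA. Only IL6R and TNFRSF1B, neighbours in this order, had replicate values that overlapped. In sh-ANP32B, TNFRSF1B was at the top with a mean of 185 TPM, followed by CSF3R, IL6R, IFNGR1, CSF2RB and FLT3. CSF3R and IL6R overlapped there, and the last 4 places were as in NC. The 10 receptors together summed to 380 and 366 TPM in the NC samples and to 554 and 604 TPM in the sh-ANP32B samples. IL6R, TNFRSF1B and CSF3R made up between 72.9% and 80.3% of this sum in each sample.

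KIT, the receptor for stem cell factor, was among the lowest of the group. The gene lies on chromosome 4 of hg38 from 54657267 to 54740783. NC replicates 1 and 2 held 1.55 and 2.31 TPM of it, and the same replicates of sh-ANP32B 3.41 and 2.76 TPM. Both sh-ANP32B samples lay above both NC samples, by less than 1 TPM at the nearest pair. The means of 1.93 ± 0.535 and 3.08 ± 0.459 TPM (SD, n = 2 each) stood at percentiles 16.1 and 21.1 of the genes tested. The log2 fold change was 0.49 (95% interval -0.22 to 1.19, SE 0.295, limma adjusted p 0.370), so the interval held both no change and more than a doubling. The low level goes against what Kasumi-1 is known for, and the samples are called by their labels here.

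The genes whose pattern over the 4 samples lay nearest to that of KIT were SECISBP2L, RHOQ, RBMS1, NPIPB13 and L3HYPDH. They were taken from 9743 genes with a mean of at least 10 TPM, by the Euclidean distance between deviations of log2(TPM + 1) from each gene's own mean. On this scale changes of low genes look smaller. The log2 fold change of KIT was 0.49 on it and 0.67 with a pseudocount of 0.1. The distances ran from 0.0281 for SECISBP2L to 0.0731 for L3HYPDH. SECISBP2L was at 11.9 and 15.7 TPM in NC against 21.6 and 17.8 TPM in sh-ANP32B. NPIPB13 belongs to a family of near-identical copies and is uncertain. With 4 samples, many genes share such a pattern.

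FLT3, the receptor for FLT3 ligand and like KIT a receptor of progenitors, was at 12.9 and 13.3 TPM in NC against 13.0 and 11.2 TPM in sh-ANP32B. The groups overlapped, and sh-ANP32B replicate 1 fell between the NC samples. The log2 fold change was -0.11 (95% interval -0.55 to 0.34, SE 0.185, limma adjusted p 0.777). CSF1R, the receptor for CSF1 and IL34 on monocytes and macrophages, was at 3.77 and 2.72 TPM in NC against 3.45 and 4.20 TPM in sh-ANP32B. Its groups also overlapped, and the log2 fold change was 0.19 (95% interval -0.46 to 0.84, SE 0.272, limma adjusted p 0.724). The ratio of FLT3 to KIT within a sample was 8.31 and 5.78 in NC and 3.82 and 4.07 in sh-ANP32B. This ratio is free of scaling between samples, and it was lower in both sh-ANP32B samples. The smallest two-sided p of an exact permutation test of 2 against 2 is 0.333, and ratios are therefore given as values.

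CSF2RB is the signalling chain that the receptors for IL-3, IL-5 and GM-CSF share, and it had the largest log2 fold change of the 10 on the log2(TPM + 1) scale. With a pseudocount of 0.1 IL3RA was above it, at 1.39 against 1.19. The gene lies on chromosome 22 from 36913628 to 36940439. Its level was 10.1 and 12.2 TPM in NC against 25.3 and 25.7 TPM in sh-ANP32B. The sh-ANP32B samples differed by less than the NC samples did and lay at more than 2 times the higher of them. Averaged over replicates these were 11.1 ± 1.52 and 25.5 ± 0.333 TPM (SD, n = 2 each), and the log2 fold change was 1.13 (95% interval 0.70 to 1.56, SE 0.180, limma adjusted p 0.0392). The adjusted p was 0.132 without NC replicate 1 and 0.114 without the abundance trend of limma.

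IL3RA, the chain that binds IL-3 and pairs with CSF2RB, was at 0.674 and 0.828 TPM in NC against 1.87 and 2.41 TPM in sh-ANP32B. It passed the filter of 1 TPM in 2 samples only through the sh-ANP32B group, so a difference was built into its presence in the test. The log2 fold change was 0.84 (95% interval 0.08 to 1.59, SE 0.317, limma adjusted p 0.177). IL3RA and CSF2RA, the chain that binds GM-CSF, lie in a region shared by chromosomes X and Y, and reads can be split between the copies, so both levels are uncertain. CSF2RA was at 5.06 and 8.44 TPM in NC against 7.04 and 9.55 TPM in sh-ANP32B, and the groups overlapped (log2 fold change 0.28, limma adjusted p 0.606). The ratio of CSF2RB to CSF2RA was 1.99 and 1.45 in NC and 3.59 and 2.70 in sh-ANP32B. The ratio of CSF2RB to IL3RA was 14.9 and 14.7 in NC and 13.5 and 10.7 in sh-ANP32B. The first ratio was higher and the second lower in both sh-ANP32B samples. IL5RA was not analysed here.

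CSF3R, the receptor for G-CSF and a driver of neutrophil formation, was the second of the called receptors. The gene lies on chromosome 1 from 36466043 to 36483278. It was at 77.0 and 72.5 TPM in NC against 121 and 158 TPM in sh-ANP32B. The groups did not overlap, and the sh-ANP32B replicates lay further apart from each other than the NC replicates. Group means were 74.8 ± 3.21 and 139 ± 26.0 TPM (SD, n = 2 each), and the log2 fold change was 0.88 (95% interval 0.49 to 1.27, SE 0.163, limma adjusted p 0.0455). Adjustment gave a limma p of 0.0592 after median-of-ratios scaling, 0.129 without the trend, 0.117 without NC replicate 1 and 0.195 without NC replicate 2.

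TNFRSF1B, the TNF receptor known mainly from blood and immune cells, lies on chromosome 1 from 12166991 to 12209228. It was at 108 and 104 TPM in NC against 169.9 and 199 TPM in sh-ANP32B. Both sh-ANP32B values stood well above the NC pair. Averages were 106 ± 2.91 and 185 ± 20.7 TPM (SD, n = 2 each), and the log2 fold change was 0.79 (95% interval 0.47 to 1.12, SE 0.137, limma adjusted p 0.0435). Adjustment gave a limma p of 0.0522 after median-of-ratios scaling, 0.123 without the trend, 0.192 without NC replicate 1 and 0.265 without NC replicate 2. TNFRSF1A, the other TNF receptor, was at 95.7 and 86.5 TPM in NC against 105 and 126 TPM in sh-ANP32B (log2 fold change 0.34, 95% interval -0.02 to 0.69, limma adjusted p 0.228). The ratio of TNFRSF1B to TNFRSF1A was 1.13 and 1.20 in NC and 1.61 and 1.58 in sh-ANP32B, so the balance of the pair was higher in both knockdown samples.

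**Figure D2:**
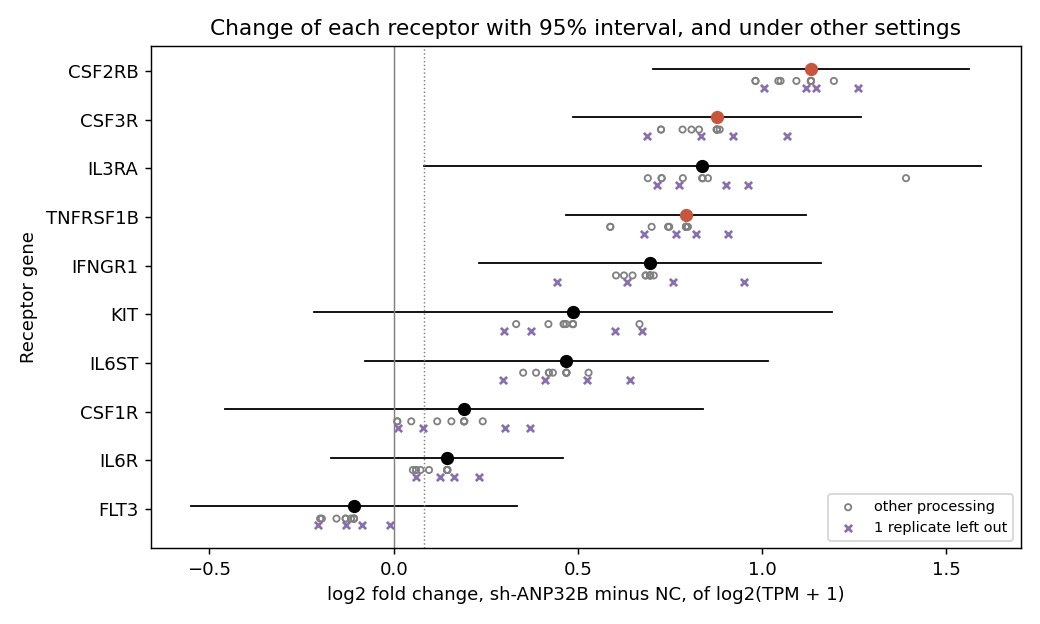
Log2 fold change of each receptor, sh-ANP32B minus NC on the log2(TPM + 1) scale, with its 95% interval. Filled red points have a limma adjusted p under 0.05, open circles are other ways of processing, crosses are fits that leave out 1 replicate, and the dotted line is the median of all genes. All settings kept the direction of every receptor, and CSF2RB, CSF3R and TNFRSF1B have intervals that start at 0.47 or higher.

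The sequences before the start sites of the called receptors are shown because transcription of myeloid receptors is known to depend on ETS factors such as PU.1 and on RUNX factors. Windows of 250 bases before a RefSeq start site (GRCh38.p14) were found for 9 of the 10 receptors, and CSF2RB had none. The whole window is printed for TNFRSF1B (chr1:12166741-12166990, plus strand), for the distal start of CSF3R (chr1:36483315-36483564, minus strand) and for FLT3 (chr13:28100577-28100826, minus strand), the last as a receptor whose groups overlapped. Capitals mark matches on either strand to the letters TGNGGT or to GAGGAA, an ETS core. In TGNGGT the N is any base, so these letters are wider than the RUNX core, in which it is C or T.
TNFRSF1B: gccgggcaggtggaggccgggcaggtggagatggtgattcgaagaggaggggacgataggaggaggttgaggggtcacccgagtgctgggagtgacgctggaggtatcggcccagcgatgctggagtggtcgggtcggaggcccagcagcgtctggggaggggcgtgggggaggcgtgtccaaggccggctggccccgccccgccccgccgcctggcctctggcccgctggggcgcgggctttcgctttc
CSF3R distal: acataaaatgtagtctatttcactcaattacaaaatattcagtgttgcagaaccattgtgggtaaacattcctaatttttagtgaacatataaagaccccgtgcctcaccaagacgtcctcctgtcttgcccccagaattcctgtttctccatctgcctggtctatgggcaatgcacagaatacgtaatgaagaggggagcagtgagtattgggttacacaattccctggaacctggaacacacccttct
FLT3: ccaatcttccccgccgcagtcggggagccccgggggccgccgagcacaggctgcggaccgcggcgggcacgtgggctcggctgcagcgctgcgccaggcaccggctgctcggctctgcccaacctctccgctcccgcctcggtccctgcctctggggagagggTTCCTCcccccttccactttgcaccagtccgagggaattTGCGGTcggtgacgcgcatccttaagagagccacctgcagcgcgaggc
The TNFRSF1B window overlaps the annotated MIR7846 gene, and neither it nor the distal CSF3R window held a match to these letters. At the second start site of CSF3R, whose window lies wholly in annotated UTR exons, an ETS match began 111 bases before the start. The proximal start of CSF1R held a RUNX match 71 bases before the start and a run of adjacent ETS matches 20 and 14 bases before it. IFNGR1 held an ETS match 184 bases before its distal start. Stretches of 30 bases around these are printed from chr1:36483007-36483036, chr5:150086608-150086637, chr5:150086557-150086586 and chr6:137219552-137219581, all on the minus strand.
CSF3R ETS: gctccttcctggGAGGAAggggctgcctgt
CSF1R RUNX: atttccaaactcTGTGGTtgccttgcctag
CSF1R ETS: cagcccaaggagGAGGAAGAGGAAaacaag
IFNGR1 ETS: tttgcactcaaaTTCCTCccacacccagaa
The ETS letters were found in 5 of the 9 receptors and in 23.6% of all 35116 windows. The RUNX letters, with any base at N, were in 6 of the 9 and in 37.7% of all windows. The matches of IL3RA and IL6ST had G at that base, outside the core, and the share of all windows counts such matches too. Some receptors have 2 windows, which gives them more chances of a match. Of the further letters searched, the GATA factor letters AGATAA were in 0 of the 9, the STAT letters TTCNNNGAA in IL3RA and the E-box letters CACGTG in FLT3, against 9.17%, 6.57% and 6.34% of all windows. These matches describe letters, not bound sites.

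IL6R, the chain that binds IL-6, had the highest NC mean of the 10. It was at 110 and 107 TPM in NC against 113 and 128 TPM in sh-ANP32B. The sh-ANP32B values were above the NC values by a small margin, and the log2 fold change was 0.15 (95% interval -0.17 to 0.46, SE 0.132, limma adjusted p 0.557). IL6R-AS1 overlaps the start of IL6R on the other strand, and the use of strand in the counting is not stated, so the level of IL6R is uncertain. The ratio of TNFRSF1B to IL6R was 0.979 and 0.965 in NC and 1.50 and 1.56 in sh-ANP32B, and that of CSF3R to IL6R was 0.699 and 0.675 in NC and 1.07 and 1.23 in sh-ANP32B. IL6R thus stood level with TNFRSF1B in NC and below it in both sh-ANP32B samples.

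IL6ST, the signalling chain shared by receptors of the IL-6 family, was at 5.93 and 5.40 TPM in NC against 9.38 and 7.18 TPM in sh-ANP32B. The groups did not overlap, but the log2 fold change of 0.47 did not pass the test (95% interval -0.08 to 1.02, SE 0.229, limma adjusted p 0.271). IL6R was between 12.1 and 19.9 times as abundant as IL6ST in the 4 samples, with 18.6 and 19.9 in NC and 12.1 and 17.8 in sh-ANP32B. Of the other chains that use IL6ST, IL11RA was at 14.0 and 18.8 TPM in NC against 28.3 and 34.3 TPM in sh-ANP32B. It passed the study's criterion with a log2 fold change of 0.90 and missed the adjusted threshold (limma adjusted p 0.0647). The ratio of IL11RA to IL6ST overlapped between groups, with 2.37 and 3.48 in NC and 3.02 and 4.77 in sh-ANP32B. IL27RA was at 31.2 and 32.3 TPM in NC against 27.5 and 41.0 TPM in sh-ANP32B, and OSMR had 1.70 and 1.61 TPM and 2.68 and 1.50 TPM, both with overlapping groups. LIFR was not analysed here.

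IFNGR1, the chain that binds interferon gamma, was at 50.3 and 46.0 TPM in NC against 93.8 and 65.7 TPM in sh-ANP32B. The gene lies on chromosome 6 from 137197483 to 137219449. Both sh-ANP32B samples were higher, but they differed from each other by more than the lower of them differed from NC. The log2 fold change was 0.70 (95% interval 0.23 to 1.16, SE 0.194, limma adjusted p 0.0987), which passed the study's criterion. With GC correction the limma adjusted p was 0.0175, in a fit that called 16.4% of all genes. It was 0.128 after median-of-ratios scaling, 0.134 after quantile normalization and 0.187 without the trend. The log2 fold change was 0.44 without sh-ANP32B replicate 1 and 0.95 without sh-ANP32B replicate 2. Without NC replicate 1 it was 0.76, and without NC replicate 2 it was 0.63. IFNGR2, the chain that brings the kinase JAK2, was at 71.1 and 70.2 TPM in NC against 83.7 and 75.5 TPM in sh-ANP32B (log2 fold change 0.17, limma adjusted p 0.499). The ratio of IFNGR1 to IFNGR2 was 0.707 and 0.655 in NC and 1.12 and 0.871 in sh-ANP32B. IFNGR1 was the scarcer chain in NC, and in sh-ANP32B replicate 1 it exceeded IFNGR2.

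**Figure D3:**
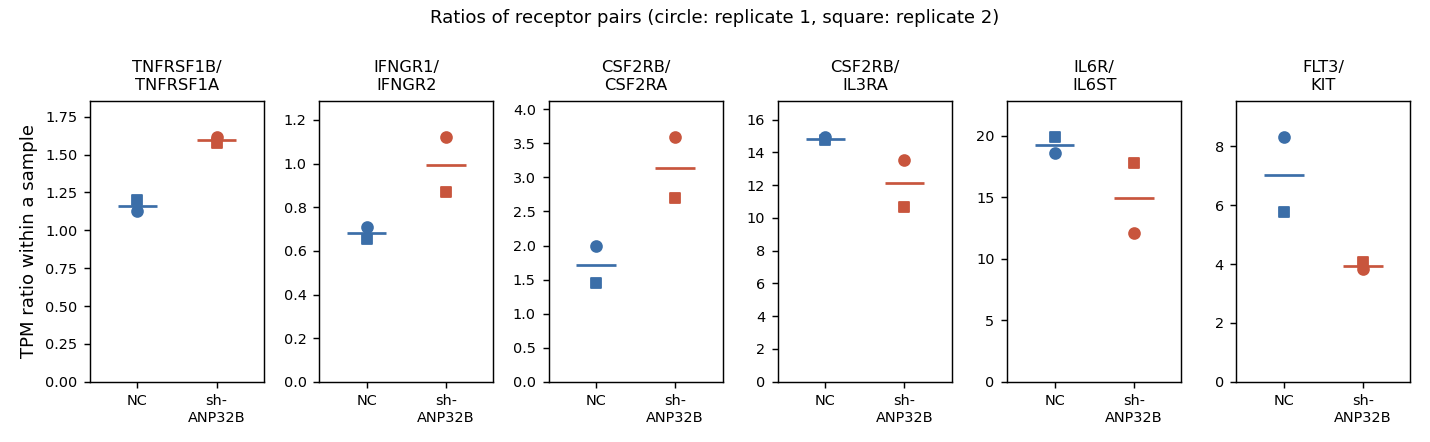
Ratio of TPM between 2 receptor genes within each sample, with lines at the group means and every axis starting at 0. The ratio does not depend on scaling between samples, but it was not corrected for GC content. The 6 panels were chosen from 12 ratios, and the groups do not overlap in them. The ratios of IL11RA to IL6ST and of FLT3 to FLT3LG overlapped and are not shown. Among all single genes, 54.6% were separated in either direction. IL3RA was under 1 TPM in both NC samples. TNFRSF1B to TNFRSF1A was at 1.13 and 1.20 in NC and at 1.61 and 1.58 in sh-ANP32B.

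Values of both sh-ANP32B samples lay above both NC samples in 8 of the 10 receptors, or in 7 of the 9 with at least 1 TPM in all samples. Among all genes 33.2% were separated in this direction and 54.6% in either. The replicates of sh-ANP32B differed in a way that went with base composition. Across 15427 genes, the difference of sh-ANP32B replicate 2 minus replicate 1 had a Spearman rho of 0.577 with transcript GC content, and that of NC a rho of -0.206. Among the receptors, replicate 2 was the lower one for all 4 with a GC content between 36.5% and 43.7%, which were KIT, FLT3, IL6ST and IFNGR1. It was the higher one for all 6 with a GC content between 51.2% and 59.5%. After GC correction CSF2RB, CSF3R, TNFRSF1B and IFNGR1 had a limma adjusted p under 0.05, in a fit that called 16.4% of all genes.

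The genes around the receptors were then counted. Of 15 ligands, 12 were not analysed here, among them those of KIT, CSF1R and CSF3R. FLT3LG, the ligand of FLT3, was at 5.49 and 2.18 TPM in NC against 2.59 and 3.92 TPM in sh-ANP32B, which overlapped (log2 fold change -0.11, limma adjusted p 0.901). The ratio of FLT3 to FLT3LG overlapped too, with 2.35 and 6.12 in NC and 5.03 and 2.87 in sh-ANP32B. IL11 was at 0.370 and 0.342 TPM in NC against 1.08 and 0.804 TPM in sh-ANP32B, and OSM had 0.353 and 0.212 TPM and 1.52 and 0.643 TPM. Both were too low for the test. Of 6 partner chains measured, 0 had an adjusted p under 0.05 and 1, IL11RA, passed the study's criterion. Their median log2 fold change was 0.24. Over all genes 3.32% were called and 18.6% passed the study's criterion.

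Of 27 other cytokine receptors, 20 were tested, and TGFBR2 and IL17RA were called higher, where 2.14% of all genes were. TGFBR2, a chain of the receptor for transforming growth factor beta, was at 53.1 and 56.2 TPM in NC against 122 and 105 TPM in sh-ANP32B (log2 fold change 1.04, SE 0.141, limma adjusted p 0.0323). IL17RA, a receptor for IL-17, was at 40.3 and 40.4 TPM in NC against 63.9 and 69.4 TPM in sh-ANP32B (log2 fold change 0.71, SE 0.138, limma adjusted p 0.0482). The call of IL17RA was lost in 6 of the 10 other ways of processing, among them median-of-ratios scaling (limma adjusted p 0.0635), and without either NC replicate (0.348 and 0.369). That of TGFBR2 was lost without the abundance trend (limma adjusted p 0.114) and without NC replicate 1 or 2 (0.0788 and 0.0513). In total 5 of the 20 passed the study's criterion, all higher, where 18.6% of all genes passed it and 12.1% passed it higher, and the median was 0.30. Values of all 20 ran from -0.37 to 1.04.

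Among 21 kinases, adaptors and STAT factors 1 was called, where 3.32% of all genes were. This gene was STAT3, a transcription factor downstream of IL6ST and CSF3R. It was at 43.3 and 48.9 TPM in NC against 79.2 and 81.2 TPM in sh-ANP32B (log2 fold change 0.79, SE 0.140, limma adjusted p 0.0440). Its limma adjusted p was 0.0506 after median-of-ratios scaling, 0.121 without the trend, 0.347 without NC replicate 1 and 0.177 without NC replicate 2. The study's criterion was passed by 5 of the 21, all higher, against the same 18.6% and 12.1% of all genes, and the median was 0.27. TYK2, a Janus kinase, was at 132 and 123 TPM in NC against 164 and 294 TPM in sh-ANP32B, with the replicates of the knockdown far apart (limma adjusted p 0.137). Of the 14 negative regulators 13 were tested, and 0 were called, against 3.32% of all genes. All 13 had a log2 fold change above 0, where 57.9% of all genes did, and their median was 0.29. CBLB, a ubiquitin ligase that turns receptors over, passed the criterion with 9.10 and 9.53 TPM in NC against 18.6 and 12.5 TPM in sh-ANP32B. Of 4 genes for receptor shedding 3 were tested and 0 were called. All 3 had a log2 fold change above 0, with a median of 0.46. RHBDF2, a partner of the protease ADAM17, passed the criterion with a log2 fold change of 0.57.

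**Figure D4:**
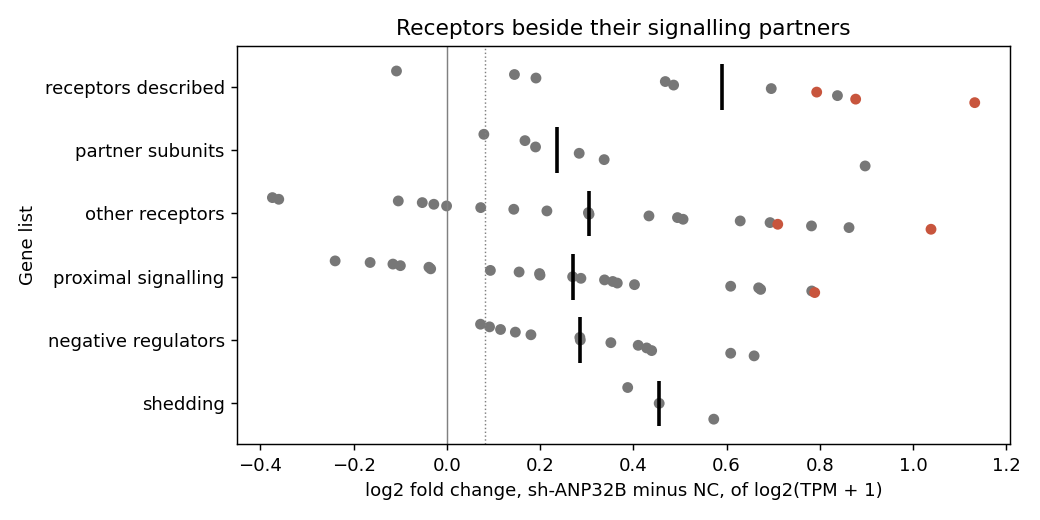
Log2 fold change of every tested gene in the receptor group and in the lists around it, sh-ANP32B minus NC. Red points have a limma adjusted p under 0.05, black bars are list medians, and the dotted line is the median of all genes at 0.08. The receptor group has its median at 0.59 and holds 3 of the 6 called genes.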

How the data were processed

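RNA was extracted with Trizol from 2 NC and 2 sh-ANP32B samples and made into Illumina TruSeq libraries. Per the labels, the authors aligned reads to hg38 with HISAT2 2.0.5. The deposited values are TPM, identified from decimals that sum to between 997812 and 998314 per sample, and the program, annotation and filter behind them are not given in the sources used here. Of 18567 Ensembl IDs, 16986 matched GENCODE v44. Genes that reached 1 TPM in 2 or more samples were compared as log2(TPM + 1), in which changes of low genes look smaller, by limma 3.58.1 with an abundance trend in R 4.3.3. P-values are two-sided and adjusted over 16817 genes. The study's own test, made for counts, could not be applied to TPM. The test was checked on simulated data with independent noise for each gene. Such data lack the GC difference seen between the sh-ANP32B replicates, so they cannot show how often calls are false here.

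The receptors, gene lists and tests were chosen with earlier results of these data known. Named genes were the receptors, their ligands and partner chains, and in each other list the called genes or else up to 3 with the largest change past the study's criterion, and the 5 nearest to KIT. HOXA9, MEIS1 and POU4F1 were looked at after their values were seen, and TYK2 was likewise added outside this rule. Replicates are separate samples by their titles, and nothing states that they came from separate cultures, so p-values may measure technical spread. Motifs were searched with Python 3.11.15 in the RefSeq promoter table.

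Alternatives were median-of-ratios scaling, rescaling without mitochondrial genes, quantile normalization, a pseudocount of 0.1, 2 other filters, limma without the trend, loess GC correction, the replicate block and leaving out each replicate. Mitochondrial transcripts made up between 8.43% and 13.1% of a sample.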

Additional observations from a re-analysis of the deposited data

How the results depend on the processing

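All 10 receptors kept the direction of their log2 fold change in every alternative that gave a value, and FLT3 ranged from -0.21 to -0.01 and CSF1R from 0.01 to 0.37. Instead of 3 receptors with an adjusted p under 0.05, median-of-ratios scaling left 1 (CSF2RB), and there were 0 without the abundance trend, where 5 had an unadjusted p under 0.05. Leaving out 1 replicate gave between 0 and 4, and between 3 and 5 receptors past the study's criterion. These fits leave a group with 1 sample, which is assumed to vary like the other group. Without NC replicate 1 CSF2RB, CSF3R and TNFRSF1B were lost, and without NC replicate 2 CSF3R and TNFRSF1B. Over all genes, the 559 calls became 2534 under GC correction, 1473 under the replicate block, 1806 under both of these and 0 without the trend, where 3701 had an unadjusted p under 0.05. Leaving out 1 replicate gave between 273 and 4079 genes, and between 1884 and 3953 past the study's criterion, which 3130 passed as reported. Of the called genes 360 were higher and 199 lower, against 236 and 294 after median-of-ratios scaling, 244 and 234 after quantile normalization, and 1161 and 1373 with GC correction. Among the neighbouring genes, whose alternatives were added after seeing the data, 4 that overlapped between groups changed sign. Leaving out 1 replicate gave log2 fold changes from -0.036 to 0.60 for CSF2RA, -0.20 to 0.36 for IL27RA, -0.089 to 0.47 for OSMR and -0.63 to 0.40 for FLT3LG. FLT3LG was above 0 without NC replicate 1 (0.40) or sh-ANP32B replicate 1 (0.11). IL27RA was at -0.012 after median-of-ratios scaling and at -0.11 with GC correction, with or without the replicate block. The cause of these shifts was not tested.

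Equal replicate numbers were not stated to mark shared handling, and deviations of same-numbered samples had a Pearson r of -0.0925 across genes. With the replicate block 4 receptors passed, IFNGR1 among them (limma adjusted p 0.0306). IL3RA could not be tested under the filter of 1 TPM in all samples.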

Other observations

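HOXA9, a homeobox gene of early blood progenitors, was at 156 and 150 TPM in NC against 169 and 194 TPM in sh-ANP32B. MEIS1, its known partner, was at 50.6 and 49.9 TPM in NC against 64.3 and 61.0 TPM in sh-ANP32B. POU4F1, a gene known from leukemia with the RUNX1-RUNX1T1 fusion, was at 16.2 and 16.1 TPM in NC against 16.2 and 22.9 TPM in sh-ANP32B. These genes were chosen after their values were seen, and they are given because KIT was low in samples labelled Kasumi-1. HOXA9 is known to be low in leukemia with that fusion, so its level, like that of KIT, goes against the label. POU4F1 and RUNX1T1 were measured in every sample, which goes with the label, so these genes were mixed. The fusion itself was not tested.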
